A study of Mus musculus with 32 samples.

Results

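Sugar use by intestinal crypt cells was described through 32 genes that carry glucose and fructose into the cell and pass them through glycolysis, fructose handling and the pentose phosphate pathway. The 32 were taken by gene symbol from a list of these pathways, out of 50686 genes in the deposited tables. RNA had been sequenced from 32 libraries of mouse intestinal crypt cells, sorted as live EpCAM+ CD24low/- CD31- Ter119- CD45- cells into stem cells, which were high for Lgr5-eGFP, and progenitors, which were low for it. Each population came from 4 conditions with 4 libraries each, and all mice were C57BL6. The wild-type groups were not free of transgenes, since they carried Villin-CreER and Lgr5-GFP-IRES-CreER. The Cpt1a-deficient groups carried the same pair of transgenes with Cpt1a fl/fl, floxed alleles of the carnitine palmitoyltransferase needed to burn long-chain fatty acids in mitochondria. Each genotype was fed either a high-fat diet (HF) or the high fat control diet (HFC, here the control diet). The Villin promoter drives Cre recombinase throughout the intestinal epithelium, and Lgr5 drives it in stem cells. Both Lgr5-eGFP gates hold only cells in which the Lgr5 reporter is active, and nothing in the labels ties the stem cells of a mouse to its progenitors or says that replicates came from separate mice. The p-values therefore measure the spread between these libraries, and populations from the same mice are treated as separate samples.

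Glycolysis splits glucose into pyruvate, and cells that make pyruvate faster than their mitochondria take it up can turn it into lactate. Fructose enters by its own transporter and kinase and joins glycolysis below phosphofructokinase, the main control step. The pentose phosphate pathway draws glucose 6-phosphate away to make NADPH and ribose. In the intestine, stem cells of the crypt are known for active mitochondria, and absorptive cells of the villus carry much of the fructose-handling machinery.

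The upstream regions of some of the genes that differed between the populations are shown first, because many glycolytic promoters hold the short letters bound by HIF and MYC-family factors. Each is the 250 bases before a RefSeq start site on build GRCm38.p6, written 5′ to 3′ on the gene's strand, and for genes with several starts the most upstream one. Capitals mark matches, on either strand, to ACGTG or GCGTG, the core of the hypoxia response element, or to CACGTG, the E-box. An E-box reads ACGTG on both strands, so it counts as 2 ACGTG matches, and CACGT in capitals is ACGTG on the other strand. The windows are chr7:46845554-46845803 (+ strand) for Ldha, chr6:142507958-142508207 (- strand) for Ldhb, chr13:6648772-6649021 (- strand) for Pfkp, chr5:30921309-30921558 (+ strand) for Khk, chr3:28697653-28697902 (+ strand) for Slc2a2 and chr6:82774455-82774704 (- strand) for Hk2. They belong to the 2 lactate dehydrogenase subunits, which moved in opposite directions, to 3 of the genes lowest in stem cells, and to Hk2, which stood higher there. Slc2a5, Hk1, Aldoc, Gapdh, Pkm, Aldoa and Pgd differed more than Hk2 and are not shown. The most upstream windows of Slc2a5, Hk1, Pkm and Aldoa hold none of these letters, and those of Aldoc, Gapdh and Pgd hold GCGTG.
Ldha: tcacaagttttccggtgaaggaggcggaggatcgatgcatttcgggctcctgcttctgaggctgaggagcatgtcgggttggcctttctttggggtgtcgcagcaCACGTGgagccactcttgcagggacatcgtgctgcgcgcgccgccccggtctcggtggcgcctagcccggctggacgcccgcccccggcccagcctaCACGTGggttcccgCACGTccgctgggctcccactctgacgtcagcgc
Ldhb: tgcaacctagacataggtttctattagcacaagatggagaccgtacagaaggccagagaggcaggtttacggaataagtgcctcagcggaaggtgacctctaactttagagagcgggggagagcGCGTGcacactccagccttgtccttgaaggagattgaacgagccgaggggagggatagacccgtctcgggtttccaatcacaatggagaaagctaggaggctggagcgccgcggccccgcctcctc
Pfkp: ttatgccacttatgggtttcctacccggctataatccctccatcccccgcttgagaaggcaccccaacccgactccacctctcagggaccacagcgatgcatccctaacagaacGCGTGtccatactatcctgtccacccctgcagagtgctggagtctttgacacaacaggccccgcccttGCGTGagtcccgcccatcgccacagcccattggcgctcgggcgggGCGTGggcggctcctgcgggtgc
Khk: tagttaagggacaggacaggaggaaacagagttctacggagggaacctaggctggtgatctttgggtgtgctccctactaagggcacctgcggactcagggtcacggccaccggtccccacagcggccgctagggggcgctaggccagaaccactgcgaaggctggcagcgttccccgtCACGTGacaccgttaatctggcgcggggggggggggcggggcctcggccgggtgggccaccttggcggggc
Slc2a2: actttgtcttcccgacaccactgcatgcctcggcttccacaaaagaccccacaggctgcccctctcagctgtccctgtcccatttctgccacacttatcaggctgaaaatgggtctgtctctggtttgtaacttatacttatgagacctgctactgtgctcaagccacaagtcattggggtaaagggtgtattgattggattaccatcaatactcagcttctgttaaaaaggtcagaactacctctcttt
Hk2: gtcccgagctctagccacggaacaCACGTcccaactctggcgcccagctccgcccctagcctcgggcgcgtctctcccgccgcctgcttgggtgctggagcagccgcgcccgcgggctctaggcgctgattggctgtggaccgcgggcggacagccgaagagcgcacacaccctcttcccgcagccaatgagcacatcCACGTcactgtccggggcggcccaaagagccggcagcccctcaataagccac
The Ldha window holds 2 E-boxes and 5 ACGTG matches, Khk 1 E-box, Hk2 2 ACGTG matches, Pfkp 3 GCGTG matches and Ldhb 1 GCGTG match, while the Slc2a2 window holds none of these letters. All 32 genes had a RefSeq window, 47 windows in all. ACGTG was present in 34.0% of them against 16.6% of all 32851 promoter windows, GCGTG in 53.2% against 28.2% and CACGTG in 10.6% against 6.0%. GGGCGG, the GC box, was present in 59.6% against 32.7%, and TATAAA in 0% against 12.4%. CCAAT was about as frequent, in 31.9% against 33.8%, and a DR1-like pair of nuclear receptor half-sites occurred in none of the 47. The windows were richer in G and C than most, with a median of 59.6% against 52.4%, and the GC-rich motifs were not compared at matched base composition.

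The libraries held 3307711 to 7337425 counts (median 5655067), of which the 32 genes took 0.561% to 1.13%. Of the 32, 31 had enough counts to be tested in every fit. The exception was Slc16a3, the lactate exporter MCT4, which had 2 to 11 counts in each library and 0.343 to 2.08 CPM (counts over the library total, scaled by edgeR's TMM method). Lgr5 lay between 282 and 515 CPM in stem cells and between 11.9 and 85.7 CPM in progenitors. Epcam was present throughout at 1904 to 2762 CPM. Cpt1a lay between 118.8 and 346.6 CPM in the wild-type libraries and between 18.8 and 30.6 CPM in the Cpt1a-deficient ones, so every genotype label matched its gene. Xist lay between 44.4 and 107.3 CPM in libraries a and b of every group (lettered in the order of the columns) and between 0 and 0.56 CPM in libraries c and d, so each group held both kinds. Markers of blood cells, stroma and endothelium were low: the summed level of 8 white blood cell markers was 6.78 to 35.6 CPM, that of 8 stroma and endothelium markers 0 to 7.93 CPM and that of 4 red blood cell markers 0 to 4.69 CPM. Of the first set Cd3e and Tyrobp were among those that had no count in any progenitor library, and of the second Col1a1 and Dcn had none in stem cells and Cdh5 and Pdgfra none in progenitors. Only Lyz2 and Itgam of the first set and Vim of the second had enough counts to be compared between the populations. All of these were called lower in stem cells.

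Stem cells held less mRNA of most of these genes than progenitors. The fructose and glucose transporters Slc2a2 and Slc2a5, ketohexokinase, the platelet-type phosphofructokinase and the lactate dehydrogenase A subunit were lowest relative to progenitors, and the enzymes of the glycolytic trunk were modestly lower. A small group ran the other way: Hk2, Aldoc, Ldhb and, slightly and near the threshold, Pfkfb2 were higher in stem cells. Transketolase and transaldolase, of the reversible branch of the pentose phosphate pathway, did not pass the test. Averaged over the 4 conditions, 22 of 31 genes were lower in stem cells, 4 were higher and 5 were not called (edgeR's quasi-likelihood test, Benjamini-Hochberg adjusted p under 0.05 over 13088 genes). The populations differed broadly, with 63.5% of all tested genes called, 32.5% higher and 31% lower. The median log2 fold change of the 31 was -0.44 against 0.02 over all genes. The 16 libraries of each population did not overlap for 6 of the 31 genes (Pfkp, Khk, Ldha, Gapdh, Aldoa and Pgd), against 10.2% of all genes.

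The same contrast within each condition gave 18 lower and 4 higher in wild type on the control diet, where 41.4% of all genes were called, 22% lower and 19.3% higher. With the high-fat diet wild type had 16 lower and 3 higher, against 37.3% of all genes, 20.1% lower and 17.3% higher. In Cpt1a-deficient mice 16 were lower and 2 higher on the control diet, against 36.8% of all genes, 19.5% lower and 17.3% higher. With the high-fat diet they had 15 lower and 3 higher, against 31.4% of all genes, 17.3% lower and 14.1% higher. These 4 contrasts use separate libraries. In all 4 of them 12 genes were called lower, namely Slc2a2, Slc2a5, Hk1, Khk, Pfkp, Aldoa, Gapdh, Pgam1, Eno1, Pkm, Ldha and Pgd. Aldoc and Hk2 were called higher in all 4, and 7 genes were called in none. Markers of other crypt cell types moved with this comparison. Paneth cell markers summed to 219.9 to 2667 CPM in stem cells and to 3938 to 25705 CPM in progenitors, and goblet cell markers to 240.5 to 836 and to 9262 to 26290 CPM. Enteroendocrine markers summed to 4.25 to 52.1 and to 560.7 to 1382 CPM, and 16 enterocyte markers to 902.7 to 2346 and to 1982 to 7881 CPM. All 8 Paneth, 8 goblet and 8 enteroendocrine markers and 12 of 15 tested enterocyte markers were lower in stem cells, 2 enterocyte markers were higher, and none of these markers was at 0 in either population. The progenitor libraries thus hold RNA typical of several cell types, and the part of that mixture in the values of the sugar genes was not tested. In such bulk libraries fewer cells of a type and less RNA per cell cannot be told apart.

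**Figure D1:**
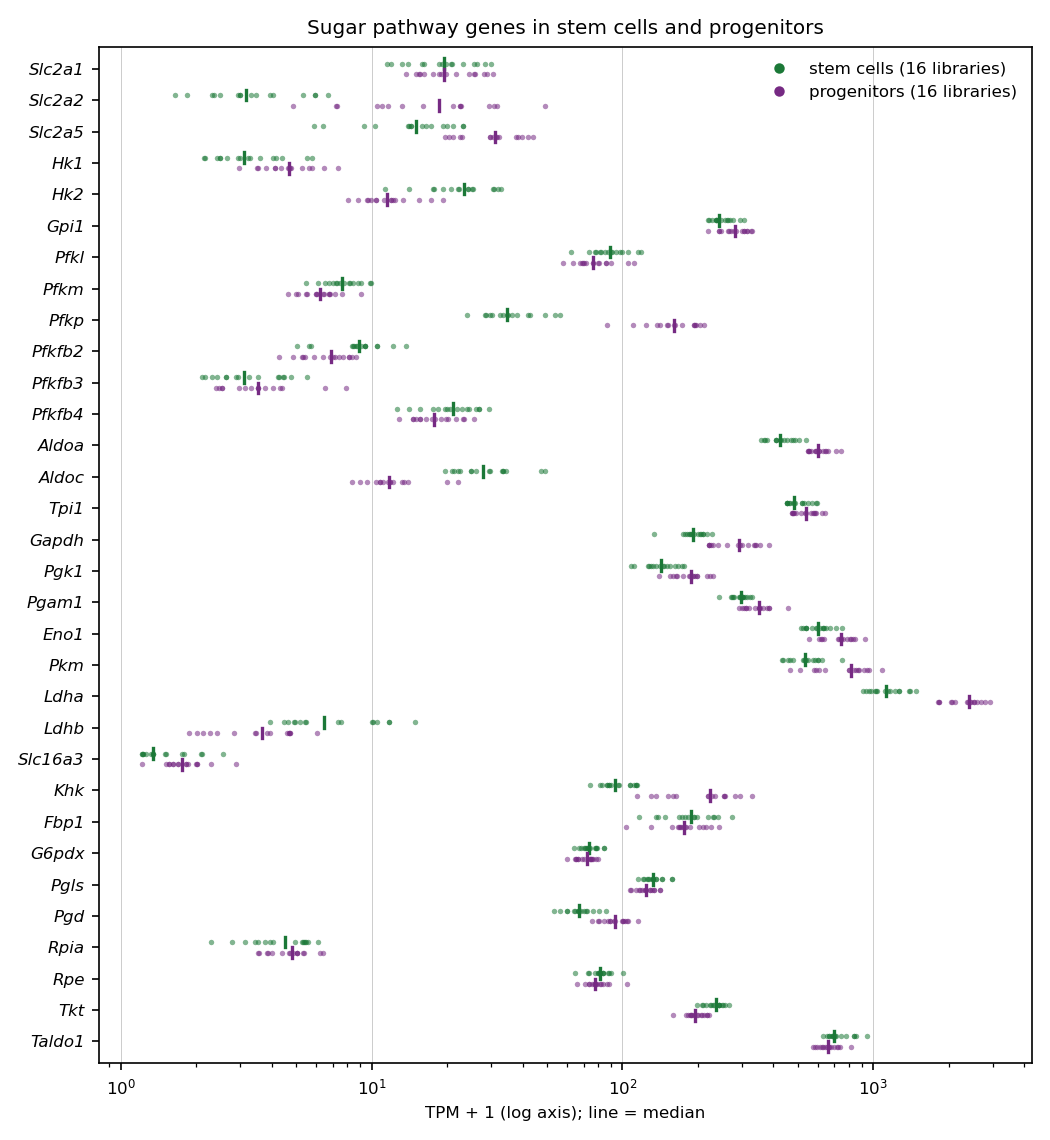
Level of each of the 32 genes as TPM + 1 (the authors' length-normalized transcript abundance, log axis), with a point for each of the 16 stem-cell (green) and 16 progenitor (purple) libraries and a line at the median. Pfkp, Khk and Ldha stand clearly to the right in progenitors and Hk2, Aldoc and Ldhb to the left, while Tkt and Taldo1 lie close together.

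The scale matters for the small differences. On the authors' log2(TPM + 1) values the median difference over all genes was 0.27 rather than 0.02. Tested there with limma, 14 of the sugar genes were lower and 9 higher in stem cells, beside 22 and 4 on the count scale. Pfkl, Fbp1, G6pdx, Pgls, Rpe, Tkt, Taldo1 and Pfkfb4 changed sign on that scale. Measured against the median of all genes on it, 26 of the 31 lay below and 5 above, and all 31 had the same sign as on the count scale. The direction of those 8 genes is therefore relative to the typical gene.

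Among the transporters, Slc2a2 (GLUT2, a low-affinity carrier of glucose and fructose, chr3:28697903-28731359 on GRCm38) had the widest gap between the populations. Its level ran from 1.46 to 8.81 CPM in stem cells, median 3.46, and from 7.67 to 88.5 CPM in progenitors, median 28.4. The lowest progenitor library lay inside the stem-cell range, and all others lay above it. The difference was 7.19-fold, a log2 fold change of -2.85 ± 0.29 (SE; edgeR adjusted p = 2.24e-09), and it lay between -3.47 and -1.85 in the single conditions. Slc2a5 (GLUT5, the fructose carrier, chr4:150119283-150144169) ran from 7.84 to 27.7 CPM in stem cells, median 16.6, and from 24.2 to 57.4 CPM in progenitors, median 43.99. It was 2.66-fold lower in stem cells, with a log2 fold change of -1.41 ± 0.16 (adjusted p = 9.64e-09). Slc2a1 (GLUT1, the general glucose carrier, chr4:119108711-119137983) differed less, with medians of 24.96 and 34.04 CPM and a log2 fold change of -0.44 ± 0.08. Per length, Slc2a1 made up a median of 51.3% of the TPM of these 3 carriers in stem cells and 30.3% in progenitors, Slc2a2 7.16% and 24.7%, and Slc2a5 41.3% and 43.0%.

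Of the hexokinases, which trap glucose as its 6-phosphate, Hk2 was the main form in stem cells. Hk2 (chr6:82725025-82774454) ran from 30.2 to 74.6 CPM in stem cells, median 57.4, and from 25.1 to 56.1 CPM in progenitors, median 31.2. The ranges overlapped, and the Cpt1a-deficient stem cells on the high-fat diet were the lowest of the stem-cell groups. Hk2 was 1.64-fold higher in stem cells, with a log2 fold change of 0.72 ± 0.07 (adjusted p = 1.91e-10). Hk1, the housekeeping hexokinase, was low in both, with a median of 2.10 TPM in stem cells and 3.67 TPM in progenitors, and a log2 fold change of -1.15 ± 0.15. As a share of the TPM of 5 hexokinase genes, Hk2 held 45.5% to 72.2% in stem cells and 9.62% to 30.0% in progenitors, with no overlap. Hkdc1, a hexokinase domain protein outside the set of 32, held 23.4% to 49.5% in stem cells and 55.8% to 84.9% in progenitors. Gpi1, which turns glucose 6-phosphate into fructose 6-phosphate, was 1.38-fold lower in stem cells, at -0.46 ± 0.05 log2.

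The mix of phosphofructokinase isozymes differed between the populations, mainly through Pfkp. Pfkp (the platelet type, chr13:6579768-6648777) ran from 28.1 to 59.3 CPM in stem cells, median 38.2, and from 121 to 313 CPM in progenitors, median 233. Every progenitor library lay above every stem-cell library. The difference was 5.50-fold, with a log2 fold change of -2.46 ± 0.11 (adjusted p = 4.25e-17). Pfkl, the liver type, was nearly level, with medians of 185 and 199 CPM and a log2 fold change of -0.18 ± 0.05 (adjusted p = 0.00479), and Pfkm, the muscle type, was not called at 0.06 ± 0.09. Within each library Pfkl gave 57.3% to 77.2% of the TPM of these 3 subunits in stem cells and 22.4% to 54.9% in progenitors, and Pfkp 17.9% to 37.7% and 43.1% to 75.6%. The ranges of the shares did not overlap for either subunit. The summed TPM of the 3 had a median of 129 in stem cells and 233 in progenitors. The share of Pfkl therefore differed more than its level. That level had medians of 87.8 TPM in stem cells and 75.4 TPM in progenitors, the reverse of the order in CPM. Pfkp overlaps Pitrm1 on the opposite strand over a stretch of 748 bases, and whether counting used strand is not given in the sources used here. Pitrm1 moved the other way, at 0.41 ± 0.04 log2, and the size of the Pfkp difference is uncertain to the extent of shared reads. The bifunctional enzymes that set fructose 2,6-bisphosphate, the activator of phosphofructokinase, differed little: Pfkfb2 was higher in stem cells at 0.23 ± 0.09 (adjusted p = 0.037), and Pfkfb3 at -0.41 ± 0.20 and Pfkfb4 at -0.12 ± 0.09 were not called. The Pfkfb2 call was lost in 11 of 32 fits with 1 library left out, and its adjusted p reached 0.0559 under the other settings. Among the single conditions Pfkfb2 was called in 1. Pfkfb4 was the main form of this family by TPM, at a median of 53.3% in stem cells and 55.3% in progenitors.

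**Figure D2:**
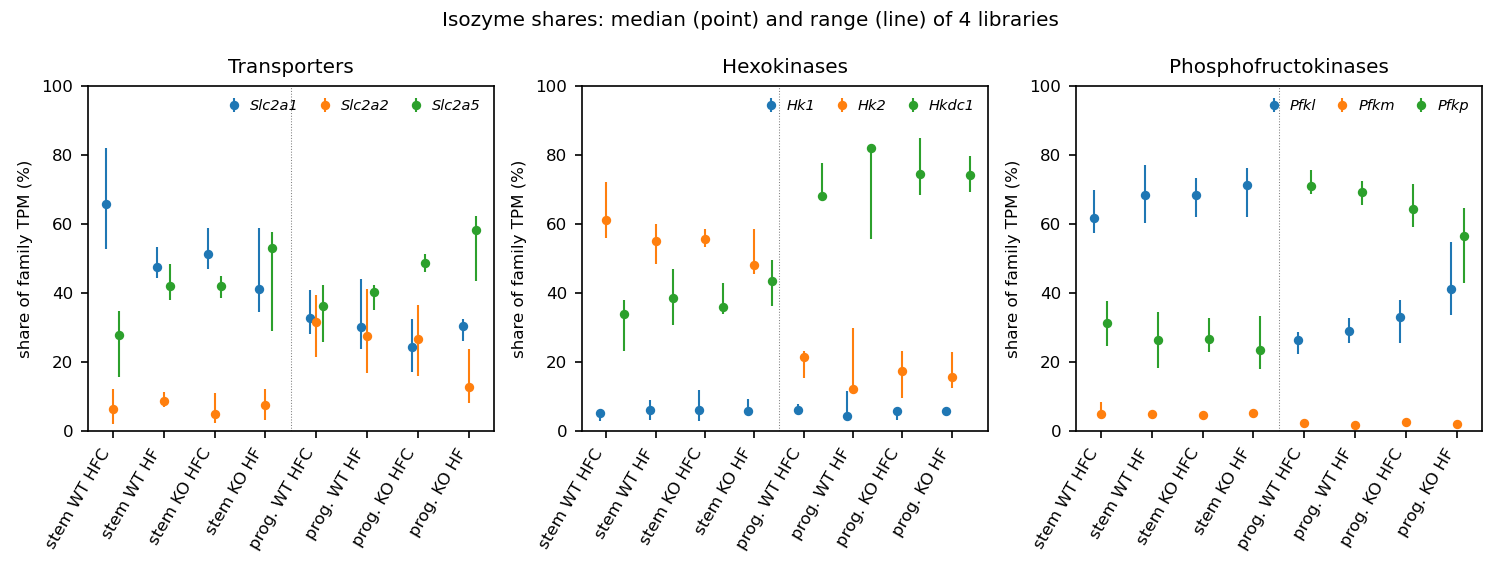
Share of each isozyme in the summed TPM of the glucose and fructose carriers, the hexokinases and the phosphofructokinases, in percent, for the 8 groups of population, genotype (KO for Cpt1a-deficient) and diet, with the median (point) and range (line) of 4 libraries. Hk2 and Pfkl have the largest median share of their families in every stem-cell group, Hkdc1 has it in every progenitor group, and Pfkp gives 43.1% to 75.6% in progenitors.

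Below phosphofructokinase all enzymes of the set tested in the trunk except Aldoc were lower in stem cells. Aldoa (aldolase A) ran from 290.04 to 417 CPM in stem cells and from 499.7 to 704 CPM in progenitors, without overlap, at -0.78 ± 0.06 log2. Aldoc (aldolase C) was minor but went the other way, with medians of 22.8 CPM in stem cells and 11.4 CPM in progenitors and a log2 fold change of 0.99 ± 0.14 (adjusted p = 3.77e-07). Tpi1, the triose phosphate isomerase, was lower at -0.39 ± 0.07. Gapdh, which makes the first high-energy phosphate of the pathway, ran from 54.9 to 98.04 CPM in stem cells and from 101 to 178 CPM in progenitors, without overlap, at -0.83 ± 0.08. The following steps were lower as well, Pgk1 at -0.66 ± 0.09, Pgam1 at -0.53 ± 0.06 and Eno1 at -0.56 ± 0.06. Pkm (pyruvate kinase M, chr9:59656368-59679375) ran from 571 to 915 CPM in stem cells, median 679.9, and from 744 to 1781 CPM in progenitors, median 1343. Its ranges overlapped, and its log2 fold change was -0.78 ± 0.08 (adjusted p = 3.75e-10). Gapdh, Pgk1 and Eno1 have near-identical copies elsewhere in the genome (102 genes for Gapdh, and Gm5537 and Gm4735 as the main ones for the other two), which held 16.9%, 18.6% and 15.9% of the joint counts, so their levels are uncertain to that extent.

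Lactate dehydrogenase A was the most abundant of the 32 in TPM, with medians of 1129 in stem cells and 2415 in progenitors. Ldha (chr7:46841475-46855627) ran from 828 to 1409 CPM in stem cells, median 993, and from 1895 to 3350 CPM in progenitors, median 2744. No stem-cell library reached the lowest progenitor library, and the difference was 2.49-fold, at -1.32 ± 0.08 log2 (adjusted p = 2.36e-14). Ldhb, whose subunit favours turning lactate into pyruvate, went the other way at a far lower level. It ran from 1.48 to 9.69 CPM in stem cells, median 3.92, and from 0.377 to 3.68 CPM in progenitors, median 1.296. The ranges overlapped, and it was 2.96-fold higher in stem cells, at 1.56 ± 0.23 log2 (adjusted p = 5.44e-07). Even so, Ldhb gave only 0.249% to 1.17% of the lactate dehydrogenase TPM in stem cells, against 0.0422% to 0.173% in progenitors, so those 2 ranges did not overlap.

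In fructose handling, Khk (ketohexokinase, which traps fructose as its 1-phosphate, chr5:30921431-30931248) ran from 40.5 to 68.2 CPM in stem cells, median 46.3, and from 93.4 to 250.2 CPM in progenitors, median 173. All progenitor libraries lay above all stem-cell libraries, and the difference was 3.24-fold, at -1.70 ± 0.12 log2 (adjusted p = 5.29e-13). Fbp1 (fructose 1,6-bisphosphatase, a step of gluconeogenesis, chr13:62864753-62888282) barely differed, from 90.3 to 226 CPM in stem cells, median 151, and from 101 to 217 CPM in progenitors, median 165. It was called slightly lower in stem cells, at -0.21 ± 0.08 log2 (adjusted p = 0.0275), with broad overlap.

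The dehydrogenases of the oxidative branch of the pentose phosphate pathway, G6pdx and Pgd, were lower in stem cells, though G6pdx changed sign on the log2 TPM scale. G6pdx (glucose 6-phosphate dehydrogenase, which opens the oxidative branch, chrX:74409483-74429194) ran from 91.02 to 117 CPM in stem cells, median 105, and from 109.7 to 145 CPM in progenitors, median 127. The ranges overlapped at their edges, and the log2 fold change was -0.26 ± 0.04 (adjusted p = 3.57e-06). Pgls, the lactonase, was at -0.13 ± 0.05 and Pgd, the next NADPH-making dehydrogenase, at -0.77 ± 0.06, with no overlap for Pgd. Of the reversible branch, Rpia was at -0.44 ± 0.15 and Rpe at -0.23 ± 0.05, and Rpe shares 558 bases with Kansl1l on the opposite strand, which makes its level uncertain. Tkt (transketolase, chr14:30548359-30574720) ran from 367 to 453 CPM in stem cells, median 402, and from 366 to 471 CPM in progenitors, median 423. Those ranges nearly coincide, and Tkt at -0.06 ± 0.04 (adjusted p = 0.19) and Taldo1 at -0.13 ± 0.07 (adjusted p = 0.0812) were not called.

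A further 57 genes of sugar uptake, glycolysis, gluconeogenesis, galactose and polyol handling and their regulators were listed from general knowledge, and 45 of them were tested. In stem cells 23 were lower, 14 were higher and 8 were not called, where 31% of all genes were lower and 32.5% higher. Small adjusted p-values among the lower ones belonged to Mlx, the partner of the sugar-sensing factor ChREBP (-0.99 ± 0.06), Pck1, the cytosolic enzyme of gluconeogenesis (-2.91 ± 0.17), Hkdc1 (-2.06 ± 0.13) and Pklr, the liver pyruvate kinase (-0.95 ± 0.07). Among the higher ones the smallest belonged to Pck2, the mitochondrial counterpart of Pck1 (0.75 ± 0.05), Prps2, which makes the ribose donor for nucleotides (0.60 ± 0.05), Sord, the sorbitol dehydrogenase (0.81 ± 0.07), Mlxip, a sugar sensor related to ChREBP (0.69 ± 0.07), and Txnip, a restraint on glucose uptake (0.87 ± 0.11). Pck1 and Pck2 moved in opposite directions and their libraries did not overlap, at 1.28 to 8.17 CPM in stem cells against 11.5 to 32.97 CPM for Pck1 and 82.3 to 129.9 CPM against 55.2 to 75.5 CPM for Pck2.

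Diet changed none of these genes past the test, and the loss of Cpt1a changed 2. In stem cells the high-fat diet gave 0 calls among the 31 in wild type (0.25% of all genes called) and 0 in Cpt1a-deficient cells (0.0645% called). At an unadjusted p under 0.05 were 4 and 2 of the 31, against 11.7% and 4.71% of all genes. In progenitors the diet gave 0 in wild type (0.0883% called) and 0 in Cpt1a-deficient cells (0.313% called). At an unadjusted p under 0.05 were 3 and 12 of the 31, against 7.06% and 9.77% of all genes. The 12 are a clearly larger share of the 31 than that of all genes. DESeq2 called 1, 1, 0 and 3 of the set in these comparisons, and 1.39%, 0.217%, 0.347% and 0.678% of the genes it tested. The median log2 fold changes of the 31 were 0.13, 0.04, 0.00 and -0.18 in the same order, where the medians of all genes were 0.01, 0.01, 0.00 and 0.00. In the Cpt1a-deficient progenitors 26 of the 31 had negative values.

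Pfkl had positive values in all 4 diet comparisons, which use separate libraries, though those of stem cells and progenitors may share mice. In wild-type stem cells Pfkl measured 167, 152, 139.8 and 124 CPM on the control diet and 195, 206, 188 and 208 CPM on the high-fat diet. The groups did not overlap, and the log2 fold change was 0.45 ± 0.11, but the adjusted p was 0.0794. It was called under 4 of 7 other settings, with adjusted p-values of 0.00976 by DESeq2, 0.0348 with a block for the 4 sets of consecutive column numbers (header-number sets, each with 1 library of every group), 0.0352 without the filter on low counts and 0.0458 with the Xist level as a covariate. The remaining settings gave up to 0.145, and leaving out 1 library gave 0.102 to 0.290. Summed goblet markers ran from 240 to 493 CPM on the control diet and from 723 to 836 CPM on the high-fat diet in these libraries, and enterocyte markers from 903 to 1288 and from 1298 to 1914 CPM, both without overlap. Of these markers 0 of 8 and 1 of 15 were called, and none was at 0 over all stem-cell libraries together. Their part in the Pfkl values was not tested. In wild-type progenitors Pfkl measured 155, 175, 148 and 142 CPM against 183, 199.5, 211 and 226 CPM, at 0.40 ± 0.10 (adjusted p = 0.249), and the groups again did not overlap. The value was 0.41 ± 0.10 in Cpt1a-deficient progenitors (adjusted p = 0.0932), without overlap, and 0.19 ± 0.11 in Cpt1a-deficient stem cells (adjusted p = 0.999), where the groups overlapped. Groups that did not overlap made up 6.62%, 4.01% and 5.71% of all genes in the first 3 of these comparisons.

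Hk2 had negative values in all 4 diet comparisons. In Cpt1a-deficient stem cells it measured 53.9, 65.4, 56.6 and 59.5 CPM on the control diet and 32.2, 45.2, 30.2 and 43.2 CPM on the high-fat diet. The groups did not overlap (3.22% of all genes did not), at -0.63 ± 0.14 log2, and the adjusted p was 0.111. Hk2 was called there by DESeq2 (adjusted p = 0.00801) and without the filter on low counts (0.0171), and the remaining settings gave up to 0.998. In those libraries summed enterocyte markers ran from 1106 to 1177 CPM on the control diet and from 1907 to 2346 on the high-fat diet. Of 15 tested 1 was called, and none was at 0 over all stem-cell libraries together. Their part in the Hk2 values was not tested. The diet value of Hk2 was -0.29 ± 0.13 in wild-type stem cells, -0.38 ± 0.14 in wild-type progenitors and -0.15 ± 0.14 in Cpt1a-deficient progenitors. Pkm in Cpt1a-deficient progenitors measured 894, 744, 805 and 971 CPM on the high-fat diet against 1781, 1386, 881 and 1535 CPM on the control diet. Control library c fell inside the high-fat range, and the log2 fold change of -0.72 ± 0.16 had an adjusted p of 0.0844. Without that library it was -0.89, with an adjusted p of 0.0031 (up to 0.294 with another library left out and 0.00433 to 0.283 under the other settings), and Gpi1 (adjusted p = 0.0199) and Gapdh (0.0446) were called lower too. That library also had the lowest Slc2a2 of the progenitors, at 7.67 CPM. Summed Paneth cell markers ran from 3938 to 13168 CPM on the control diet and from 14665 to 25705 CPM on the high-fat diet in Cpt1a-deficient progenitors. All 8 had positive values, 0 of 8 were called and none was at 0 over all progenitor libraries together. Their part in these values was not tested.

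In progenitors fed the high-fat diet, the glucose carrier Slc2a1 and 6-phosphogluconate dehydrogenase, Pgd, were lower without Cpt1a. These 2 were the only calls among the 31 there, against 0.706% of all genes called in either direction and 0.233% called lower, and DESeq2, which called 1.5% of its genes, called both. At an unadjusted p under 0.05 were 11 of the 31, against 10.6% of all genes, and the groups did not overlap for 5, against 7.09%. Both are larger shares of the 31 than of all genes. Slc2a1 measured 41.96, 45.002, 43.03 and 34.2 CPM in wild type and 28.04, 21.7, 28.2 and 28.3 CPM in Cpt1a-deficient progenitors. Each wild-type library lay above each deficient one, at a log2 fold change of -0.62 ± 0.13 (adjusted p = 0.0303). Pgd (chr4:149149991-149166771) measured 173, 163, 161 and 182 CPM against 119, 136, 127 and 129 CPM, also without overlap, at -0.40 ± 0.09 (adjusted p = 0.0448). Both calls stand near the threshold. Leaving out 1 of the 8 libraries at a time lost the Pgd call in 8 of 8 fits, with adjusted p-values from 0.0748 to 0.158, and the Slc2a1 call in 6 of 8, with 0.0573 to 0.140 in the fits that lost it. Slc2a1 stayed called only without wild-type library d or deficient library d. On the log2 TPM values neither was called by limma (adjusted p = 0.0967 and 0.0688), while the log2 differences of -0.60 and -0.37 were of similar size. The block of header-number sets lost the Pgd call (0.0507) and kept that of Slc2a1 (0.0408). The other 5 settings kept both, down to 0.00181 and 0.00239 with DESeq2.

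The 29 genes of the set that were not called in this comparison had a median log2 fold change of -0.18, against 0.00 over all genes, and 23 of them were negative. With the adjusted p in parentheses, Slc2a2 was at -1.71 ± 0.57 (0.268), Pkm at -0.52 ± 0.16 (0.222), Gapdh at -0.48 ± 0.15 (0.18) and Ldha at -0.38 ± 0.13 (0.268), and none of these was called. Pfkl was at 0.29 ± 0.10 (0.243). Summed over the 32 genes, TPM was 8250 ± 960.3 (SD, n = 4) in wild type and 6997 ± 341.9 in Cpt1a-deficient progenitors on the high-fat diet, and 8552 ± 167.3 and 8491 ± 1306 on the control diet. The 4 deficient libraries on the high-fat diet ran from 6659 to 7303, and the lowest wild-type library on that diet, at 6881, fell inside them. The summed enterocyte markers of this comparison ran from 2820 to 6097 CPM with Cpt1a and from 5176 to 7881 CPM without it. However, 11 of the 15 tested had negative values, with a median log2 fold change of -0.40. Of 8 goblet markers 1 was positive (median -0.29), and 4 of 8 Paneth and 4 of 8 enteroendocrine markers were. Among 8 stem-cell markers, which include Lgr5, 7 were positive (median 0.25). Their sums ran from 3205.9 to 4638.2 CPM with Cpt1a and from 3988.5 to 6093.7 CPM without it. Of all these markers 0 were called, and none was at 0 over all progenitor libraries together. The part of these cell types in the values was not tested.

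The same genotype contrast was run in 3 further sets of libraries. On the control diet in progenitors 0 of 31 were called (0.257% of all genes), with 4 at an unadjusted p under 0.05 (5.8% of all genes) and 2 called by DESeq2 (0.532%). In stem cells on the high-fat diet 0 were called (0.443% of all genes), with 6 at an unadjusted p under 0.05 (6.38%) and 1, Hk2, called by DESeq2 (0.673%). In stem cells on the control diet 0 were called (0.242% of all genes), with 2 at an unadjusted p under 0.05 (4.73%) and 0 called by DESeq2 (0.417%). Slc2a1 was at -0.54 ± 0.13 (adjusted p = 0.114) in progenitors on the control diet, without overlap (3.2% of all genes), at -0.65 ± 0.17 (0.165) in stem cells on the high-fat diet and at -0.49 ± 0.17 (0.691) in stem cells on the control diet. In those stem cells Slc2a1 measured 33.9, 30.3, 30.9 and 29.1 CPM in wild type and 23.3, 22.3, 16.5 and 27.1 CPM without Cpt1a on the control diet, with no overlap (3.92% of all genes). It was therefore negative in all 4 genotype comparisons, with 1 of them called. Hk2 was negative in all 4 as well, at -0.58 ± 0.14 (0.0825) in stem cells on the high-fat diet, -0.55 ± 0.14 (0.121) in progenitors on the control diet, -0.33 ± 0.14 in progenitors on the high-fat diet and -0.25 ± 0.13 in stem cells on the control diet. In stem cells on the high-fat diet Hk2 was called with the block of header-number sets (adjusted p = 0.0428), without the filter on low counts (0.0152) and by DESeq2 (0.0096), and the remaining settings gave up to 0.703. In progenitors on the control diet DESeq2 called Slc2a1 (0.0278) and Hk2 (0.0315). The stem cells with both the deletion and the high-fat diet had the lowest Hk2 of the stem-cell groups, 37.7 ± 7.59 CPM (SD, n = 4) beside 69.3 ± 7.68 CPM in wild type on the control diet.

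Fbp1 had positive values in all 4 genotype comparisons and no call. In stem cells on the control diet it measured 90.3, 111, 102 and 127 CPM in wild type and 157, 179, 135 and 164 CPM without Cpt1a. The groups did not overlap, as for 3.92% of all genes, at 0.55 ± 0.15 log2 (adjusted p = 0.323). It was 0.46 ± 0.15 in stem cells on the high-fat diet (0.452), again without overlap, as for 3.55% of all genes, 0.41 ± 0.17 in progenitors on the control diet (0.77) and 0.20 ± 0.17 in progenitors on the high-fat diet (0.723). Across the 31 genes, 3 were positive and 6 negative in all 4 genotype comparisons, and 2 were positive and 3 negative in all 4 diet comparisons. The share of all genes with the same sign in all 4 was not computed, so these counts cannot set the 31 apart from other genes. The stem-cell and progenitor comparisons may also share mice.

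**Figure D3:**
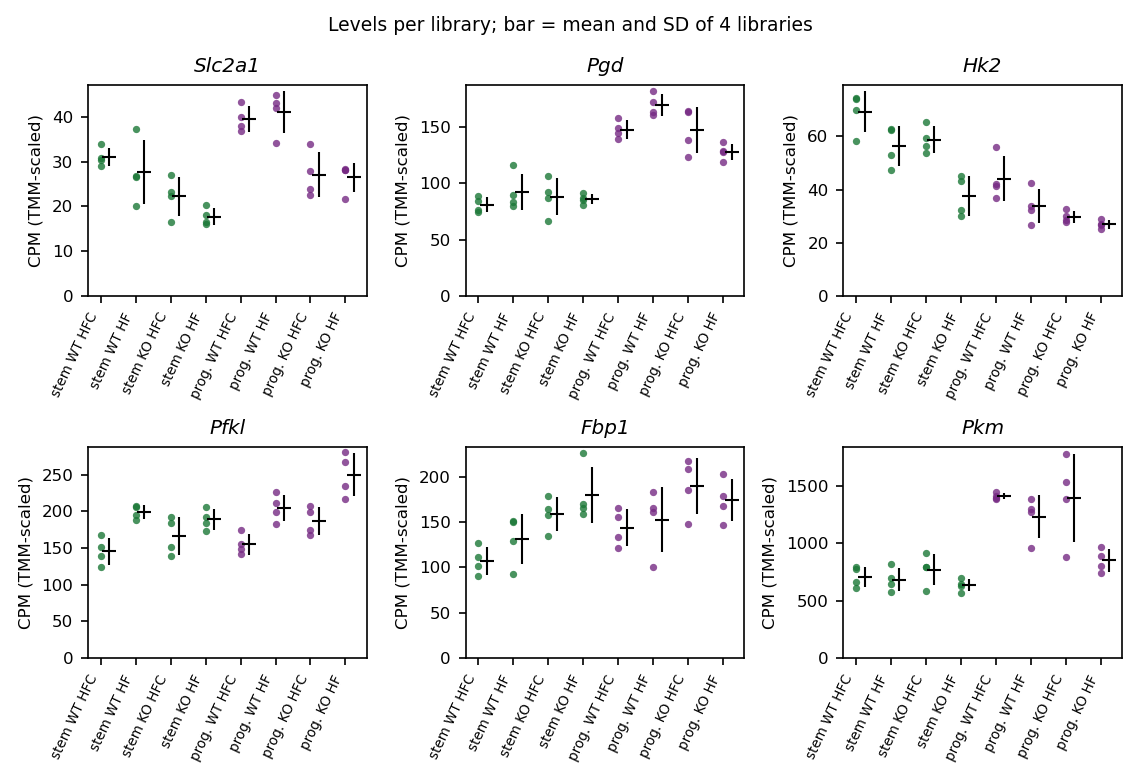
Level of 6 of the genes in each library (points, TMM-scaled CPM), with the mean and SD of the 4 libraries of each group (bars), for stem cells (green) and progenitors (purple). In progenitors on the high-fat diet the Cpt1a-deficient points of Slc2a1 and Pgd lie below all wild-type points, and these were the 2 called differences of diet or genotype.

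Whether the effects of diet depended on genotype, or differed between stem cells and progenitors, was tested directly. The interaction of diet and genotype was called for 0 of 31 genes in stem cells and 0 in progenitors, and for 0% of all genes in both. Of the progenitor interactions Pgd had the smallest unadjusted p, at -0.41 ± 0.13 log2 with 0.00468 (adjusted p = 0.969). Pfkfb4 in stem cells was at 0.62 ± 0.22 (unadjusted p = 0.0118, adjusted p = 0.999), with 35.6, 31.5, 30.9 and 45.9 CPM on the control diet and 22.9, 23.3, 31.4 and 21.7 CPM with the high-fat diet in wild type, while the deficient libraries measured 27.9, 28.7, 37.6 and 33.3 and then 27.7, 38.7, 34.6 and 32.9 CPM. Neither was called. The difference of each diet and genotype effect between the populations was called for 0 of 31 genes and 0% of all genes in all 4 tests, and 1, 3, 4 and 0 of the 31 had an unadjusted p under 0.05 (diet in wild type, diet without Cpt1a, genotype on the high-fat diet, genotype on the control diet), beside 3.23%, 2.96%, 2.53% and 2.01% of all genes. The Slc2a1 and Pgd calls in progenitors are therefore not shown to differ from the stem-cell values.

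**Figure D4:**
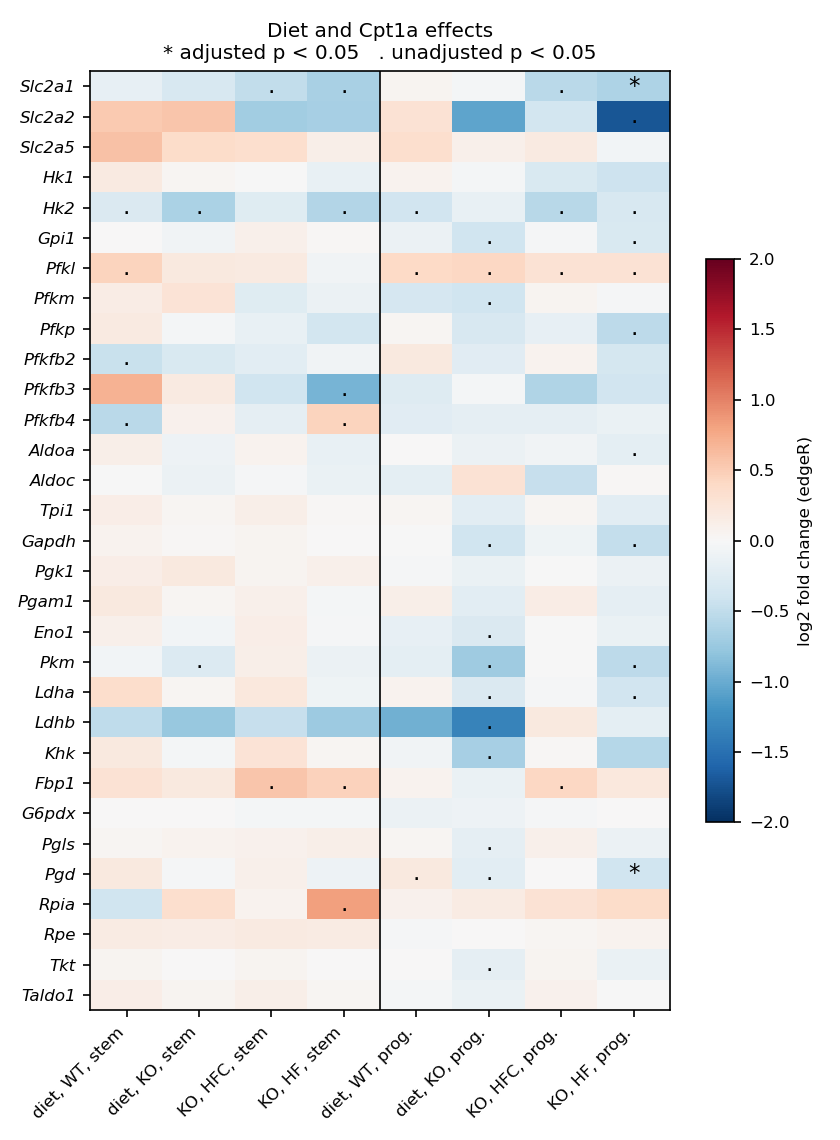
Log2 fold changes of the 31 tested genes (rows) for the diet and Cpt1a comparisons within stem cells and progenitors (columns), with a star for an adjusted p under 0.05 and a dot for an unadjusted p under 0.05. The stars fall on Slc2a1 and Pgd in the genotype comparison on the high-fat diet in progenitors.

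Among the other 57 pathway genes the diet comparisons called none. Loss of Cpt1a called 1 lower in stem cells on the high-fat diet out of 43 tested, where 0.443% of all genes were called: Pcx, the pyruvate carboxylase that feeds oxaloacetate (-0.91 ± 0.19, adjusted p = 0.0363). Pcx lay between 15.0 and 25.2 CPM in wild type and between 8.56 and 13.2 CPM in the deficient stem cells. In progenitors on the high-fat diet it called 1 higher out of 45, where 0.706% of all genes were called: Hif1a, the hypoxia-inducible regulator of glycolytic genes (0.57 ± 0.12, adjusted p = 0.0273). Hif1a lay between 97.7 and 116.5 CPM in wild type and between 124.03 and 181 CPM without Cpt1a, without overlap. In the control-diet genotype comparisons none was called.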

How the data were processed

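Counts and log2 values per gene were deposited for 32 libraries. Per the submitters' processing notes, STAR 2.5.3a, RSEM 1.3.0 and SAMtools 1.3 were used with build mm10. The authors deposited expected counts (already whole numbers) and log2(TPM + 1) values, the log2 offset being 1. Strand setting and annotation are not given in the sources used here. Columns name a group but no replicate or sex, so the 4 libraries of a group are called a to d.

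Gene IDs were matched to symbols through GENCODE M21 (GRCm38), and genes without a symbol held 0.0677% of counts. edgeR 4.0.16 (R 4.3.3) was run on the counts with TMM scaling, a filterByExpr minimum of 10 counts and robust quasi-likelihood tests, with p-values adjusted by Benjamini and Hochberg over all tested genes (threshold 0.05). Stem cells and progenitors were fitted apart, and jointly for contrasts between them. SE is the log2 fold change over the root of F. Alternatives were DESeq2 1.42.0, limma 3.58.1 on log2 TPM, other size factors, no filter, an Xist-level covariate in place of sex, a block of header-number sets (added after the headers were seen), a fit of only the 8 libraries compared and leaving out each library. Motifs were searched in 250 bases before RefSeq starts. Near-identical copies share at least 95% identity over 300 bases.

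The 32 genes and the other lists were chosen with earlier results of these data known. Named are all called genes of a comparison with at most 12 calls, otherwise the largest changes per direction, plus 10 genes listed by name, and of the other pathway genes up to 5 per direction, apart from a few that are not reported here. Genes whose values are given without a call, and the neighbours Pitrm1 and Kansl1l, were chosen after values were seen.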

Additional observations from a re-analysis of the deposited data

Results flagged for a closer look

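In groups of 4 libraries, Dixon's ratio set 1 library apart from the other 3 in 14 of 248 combinations of gene and group. Chance alone gives about 1 in 20. In Cpt1a-deficient stem cells on the high-fat diet, library a was highest for 4 genes: Aldoa at 382.3 CPM (others 311.4 to 316.5), Fbp1 at 226.3 CPM (others 158.8 to 169.4), Khk at 68.2 CPM (others 45.8 to 48.8) and Rpia at 9.94 CPM (others 7.16 to 7.61). In wild-type progenitors on the high-fat diet, library b was lowest for Eno1 at 825.0 CPM (others 1069 to 1103) and highest for Hk1 at 15.5 CPM (others 6.80 to 8.12). In Cpt1a-deficient progenitors on the high-fat diet, library b was lowest for Slc2a1 at 21.7 CPM (others 28.0 to 28.3) and highest for Ldhb at 1.21 CPM (others 0.788 to 0.857), and library d was lowest for Rpe at 114.8 CPM (others 135.0 to 138.2). Without that library b the Slc2a1 genotype effect was -0.53 log2 (adjusted p = 0.140, in a range of 0.0154 to 0.140 over the 8 libraries left out in turn). Slc2a2 was highest in library b of the Cpt1a-deficient stem cells on the high-fat diet, at 7.67 CPM (others 2.32 to 3.07), and in library c of those on the control diet, at 5.18 CPM (others 1.74 to 2.13). In wild-type stem cells fed the high-fat diet Pfkfb4 was highest in library c, at 31.4 CPM (others 21.7 to 23.3). Rpia was highest in library b of wild-type progenitors on the control diet, at 9.46 CPM (others 6.202 to 6.53), and Taldo1 in library a of wild-type stem cells on the control diet, at 525.1 CPM (others 465.0 to 470.9).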

How the results depend on the processing

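The 26 calls between stem cells and progenitors numbered 23 to 27 under the other settings and 24 to 27 when each library was left out. These totals hide a change of genes with limma on log2 TPM. There Pfkl (adjusted p = 0.00227) and Pgls (0.0413) were called higher in stem cells instead of lower. Tkt, Taldo1 and Pfkm were called higher only there, and Slc2a1, Tpi1, G6pdx, Fbp1, Rpe and Rpia were not called. With limma on log2 TPM 8 genes changed sign, to 0.19 for Pfkl, 0.21 for Pfkfb4, 0.062 for Fbp1, 0.066 for G6pdx, 0.10 for Pgls, 0.038 for Rpe, 0.25 for Tkt and 0.15 for Taldo1, on a scale whose median over all genes was 0.27. The count of 2 for genotype on the high-fat diet in progenitors became 0 with limma, 1 with the header-set block, where Pgd had an adjusted p of 0.0507 (0.00239 to 0.0688 over all settings that kept every library), and 0 to 1 with a library left out. Where no gene was called, DESeq2 called 1 (Pfkl) for diet in wild-type stem cells, 1 (Hk2) for diet in Cpt1a-deficient stem cells, 1 (Hk2) for genotype on the high-fat diet in stem cells, 3 (Gpi1, Pfkl and Pkm) for diet in Cpt1a-deficient progenitors and 2 (Slc2a1 and Hk2) for genotype on the control diet in progenitors. Without the filter on low counts the first 3 of these were also 1, with the same genes, and the fourth was 1 (Gpi1). The Xist covariate and the header-set block each gave 1 (Pfkl) for diet in wild-type stem cells, and the block gave 1 (Hk2) for genotype on the high-fat diet in stem cells. With libraries left out the counts ran from 0 to 2 for genotype on the high-fat diet in stem cells and from 0 to 3 for diet in Cpt1a-deficient progenitors. The causes were not tested. No paired analysis was possible because the columns carry no replicate numbers that match those in the labels, and the block of header-number sets, whose values are given above, stands in its place without showing which libraries share a mouse. Depth limits Slc16a3, which was not tested, and Ldhb, Slc2a2, Rpia and Pfkfb3, which lie at a few CPM in some groups.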
